A study of Mus musculus with 20 samples.

Results

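The transcripts followed here are Vmp1, the gene in which the microRNA miR-21 is encoded, and 8 genes that have been reported as direct targets of miR-21, namely Pdcd4, Spry1, Spry2, Peli1, Reck, Tpm1, Btg2 and Mpv17l. They were picked by symbol, and all 9 were found among the 47069 genes of the count table and were among the 17622 genes with enough reads to be tested. RNA sequencing had been performed on whole kidneys of 20 male mice at 15 weeks of age, all on an F1 background of 129SJ and C57Bl/6J. The first strain is spelled as in the sample labels, and the paper writes it as 129/SvJ. Wild-type mice (WT, n = 5) were left untreated. The other groups carried the Col4a3-/- genotype, a model of Alport syndrome in which the type IV collagen of the glomerular basement membrane is defective, and their treatment began at an age of 5 weeks. They received weekly subcutaneous PBS (Veh, n = 6), weekly lademirsen at 50 mg/kg (anti-miR-21, n = 6) or ramipril in their drinking water at 11 mg/L (ACEi, n = 3). By the study's methods the ACEi mice were given PBS injections as well. Lademirsen is an oligonucleotide inhibitor of miR-21 and ramipril is an inhibitor of the angiotensin-converting enzyme. No untreated Col4a3-/- group and no treated wild-type group were analysed here, so every drug effect was read against PBS in knockout mice. Between 28474301 and 29479629 estimated read counts were assigned to genes per mouse.

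MicroRNAs are short RNAs that guide Argonaute proteins to messenger RNAs, mainly by pairing of the seed, the bases from position 2 to 8, with a site in the 3′ UTR. The paired messenger is then translated less or degraded sooner, so inhibition of a microRNA can raise its targets, and an effect on translation alone would not be seen in RNA levels. miR-21 is transcribed with or next to Vmp1, is induced in injured and fibrotic kidney, and has been linked there to lipid metabolism and fibrosis.

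The sequence of mature mouse miR-21a-5p, taken from RefSeq on GRCm38.p6, is printed with its close relatives and with the seed in capitals, because the seed defines the sites searched for. miR-21c has the same seed as miR-21a-5p, and miR-21b has another one.
miR-21a-5p: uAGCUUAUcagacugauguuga
miR-21c: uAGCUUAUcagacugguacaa
miR-21b: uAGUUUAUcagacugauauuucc

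The complement of the seed, ATAAGCT, was searched on the transcribed strand of the annotated 3′ UTRs (GENCODE, GRCm38). Pdcd4, Spry1, Spry2, Peli1 and Reck each held 1 match, and in all 5 genes it was followed by an A, which makes it the 8-base form of the site. The 22 bases of each gene that end with the site are given 5′ to 3′, with the site in capitals.
Pdcd4: gtgtgggtgttctgATAAGCTA
Spry1: atgtaagtgcttaaATAAGCTA
Spry2: gagacccacattgcATAAGCTA
Peli1: tgcattgtaagtttATAAGCTA
Reck: ttttacagtttgaaATAAGCTA

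These stretches lie at chr19:53929418-53929439 (plus strand, Pdcd4), chr3:37643859-37643880 (plus, Spry1), chr14:105892498-105892519 (minus, Spry2), chr11:21148541-21148562 (plus, Peli1) and chr4:43944393-43944414 (plus, Reck). No match to these letters was found in the annotated 3′ UTRs of Tpm1, Btg2, Mpv17l or Vmp1, which says nothing about sites of another form. Of 15216 tested protein-coding genes with an annotated 3′ UTR, 8.005% held at least 1 match. A match is a description of the sequence and not evidence of binding in these kidneys.

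Mature miR-21 itself was not measured in these libraries. The hairpin of miR-21a lies at chr11:86584067-86584158 on the minus strand, inside exon 12 of the 12 exons of Vmp1 and within its 3′ UTR. The deposited FPKM table (fragments mapped, scaled by exon length and depth) has an entry for this hairpin of 92 bases, and it is listed at 0 in all 20 mice. So are 1175 of the 1187 mouse microRNA hairpins in that table, and the count of Mir21a was 0 in every mouse. Vmp1 therefore stands in the following as the host gene, not as a measure of miR-21.

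Col4a3, the targeted gene, separated the genotypes. Its level, in counts scaled to library size by TMM (CPM, edgeR's usual unit), was 193.8, 208.3, 221.5, 221.7 and 237.5 in the 5 WT mice and lay between 27.9 and 46.3 in Veh mice. Anti-miR-21 mice had 45.9 to 74.9 CPM and ACEi mice 42.8 to 56.2 CPM. The ranges of WT and all knockout groups were apart. A total over the gene does not show which exons were still read, and the Col4a3 entry of the deposited FPKM annotation carries the mark confounded.

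The tissue label, kidney, was checked because the labels' extraction text speaks of adipose tissue. Markers of proximal tubule summed to 13080 ± 1265 CPM in WT (SD, n = 5), with the phosphate carrier Slc34a1 as the most abundant, and podocyte markers to 203.7 ± 41.1 CPM. None of the markers of nephron segments was at 0 in any group. Adipocyte markers, led by Cfd in every group, summed to between 0.525 and 410.1 CPM. They were at 350.9, 366.4 and 410.1 CPM in the Veh mice A9, A4 and A1, at 224.2 CPM in the anti-miR-21 mouse A12, and at 56.0 CPM or below in the other 16 mice. The results are therefore also given without these 4 mice where a call depended on them.

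In Col4a3-/- kidneys of the Veh group all 9 transcripts differed from WT. Vmp1 and 7 of the 8 reported targets were higher, by 1.18-fold (Pdcd4) to 4.91-fold (Tpm1), and Mpv17l alone was lower, by 12.4-fold. All changes were called by edgeR's quasi-likelihood test with Benjamini-Hochberg adjustment over all 17622 genes at 0.05. This count has to be read against a background in which 73.0% of all genes tested were called, 39.0% higher and 34.0% lower. The median log2 fold change of the 9 genes was 0.66, compared to 0.07 for all genes. For 7 of the 9 genes, all but Pdcd4 and Peli1, the values of the Veh and WT groups did not overlap, which was the case for 54.9% of all genes. Since whole kidney was sequenced, fewer cells of a type and less RNA per cell cannot be told apart.

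The scaling of the libraries matters for the smaller of these changes. The 10 most counted genes took a median of 16.61% of the counts in WT and 9.26% in Veh mice. With library totals alone instead of TMM, the median over all genes for Veh vs WT moved from 0.07 to 0.65 (log2), and 11623 genes were called higher and 2684 lower, compared to 6869 and 5998 with TMM. Relative to the median of all genes, Pdcd4 was higher by 0.17, Peli1 by 0.24 and Spry2 by 0.38 on the log2 scale under TMM, and by 0.17, 0.24 and 0.39 with library totals.

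Anti-miR-21 moved 7 of the 9 transcripts compared to Veh. Mpv17l rose 5.39-fold, and Tpm1, Btg2, Spry1, Reck, Pdcd4 and Vmp1 fell. Spry2 (log2 fold change -0.17 ± 0.08 SE, adjusted p = 0.071) and Peli1 (-0.10 ± 0.12, adjusted p = 0.495) were not called by edgeR. With library totals alone all 9 genes were called, Spry2 at -0.51 and Peli1 at -0.43 (adjusted p = 0.0101). None of the 5 genes with a printed site was called higher. The background was 59.2% of all genes called, 28.8% higher and 30.5% lower, and the median log2 fold change of the 9 genes was -0.29 compared to -0.04 for all genes. In 5 of the 9 genes (Spry1, Reck, Tpm1, Btg2 and Mpv17l) no value of one group lay within the other, compared to 36.4% of all genes. With library totals alone, 2459 genes were called higher and 9861 lower, compared to 5073 and 5367 with TMM.

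ACEi moved 4 of the 9 transcripts compared to Veh. Mpv17l rose 5.37-fold, and Tpm1, Reck and Vmp1 fell. This share was near the background of 40.1% of all genes called (21% higher, 19.1% lower). The median log2 fold change was -0.36 for the 9 genes and -0.05 for all genes. Values did not overlap for Spry1, Reck, Tpm1 and Mpv17l, thus for 4 of 9 genes, which was again near the share of all genes (38.6%). With library totals alone, 8 of the 9 genes were called in this comparison, and 1907 genes overall were called higher and 7389 lower, compared to 3704 and 3370 with TMM. With upper quartile scaling the split was 3063 and 4317. Anti-miR-21 and ACEi were each compared to the same Veh mice, so their changes share the error of that group. The ACEi group had 3 mice and the anti-miR-21 group 6, so their numbers of calls were not of equal precision.

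**Figure D1:**
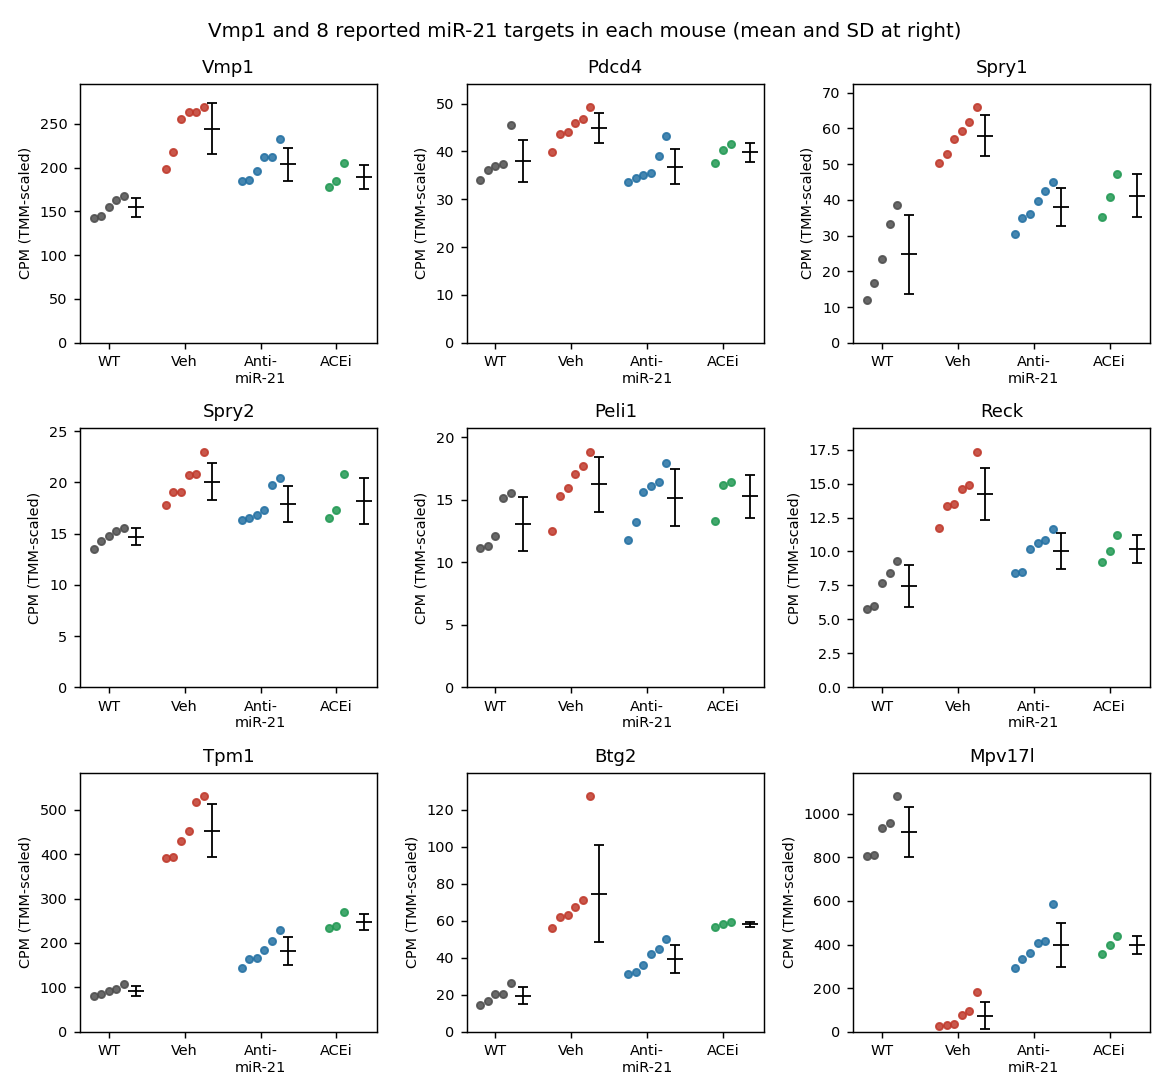
Level of Vmp1 and of 8 reported miR-21 targets in each mouse, in TMM-scaled CPM on linear axes that start at 0, for WT (n = 5), Veh (n = 6), anti-miR-21 (n = 6) and ACEi (n = 3). Points are mice, ordered by value, and the bar at the right of each group is the mean with the SD. Mpv17l is the panel in which Veh mice lie lowest, from 26.3 to 182.4 CPM, and in the other panels the Veh mean is the highest of the 4.

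**Figure D2:**
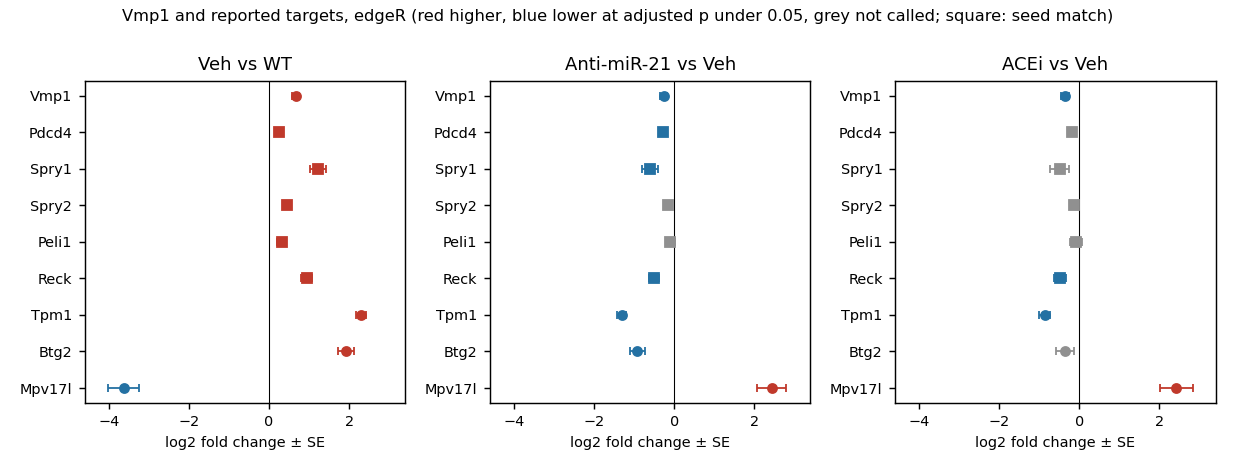
Log2 fold change with its standard error from edgeR for the same 9 genes in 3 comparisons. Red and blue mark genes called higher and lower, grey marks genes not called, and squares mark genes with a miR-21a-5p seed match in the 3′ UTR. All 5 squares lie right of 0 for Veh vs WT and left of 0 in both comparisons of a treatment with Veh.

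Vmp1, an endoplasmic reticulum protein needed for the formation of autophagosomes, spans chr11:86583865-86683836 on the minus strand. Its level in WT was 142.8, 144.4, 155, 163 and 168 CPM. Veh mice had a lowest, median and highest value of 198, 259 and 269 CPM. All Veh mice were above all WT mice, and the mean rose 1.58-fold (log2 0.66 ± 0.09 SE, adjusted p = 7.42e-07). Anti-miR-21 mice had 184.5, 203.6 and 233 CPM as lowest, median and highest value, and 2 ACEi mice had 178 and 185 CPM. The other ACEi mouse had more than the Veh mouse A20, and the ACEi mean was 189 ± 13.9 CPM (SD, n = 3). The anti-miR-21 range took in the 2 lowest Veh mice, A20 and A16, the ACEi range took in A20, and both treated groups were above every WT mouse. Vmp1 fell by 0.26 ± 0.08 (adjusted p = 0.00883) with anti-miR-21 and by 0.37 ± 0.10 (adjusted p = 0.00668) with ACEi on the log2 scale. Without the 4 mice with high adipocyte markers the fall was 0.14 (adjusted p = 0.279) with anti-miR-21 and 0.23 (adjusted p = 0.151) with ACEi and was no longer called. In that fit Vmp1 was still higher in Veh than in WT, by 0.55. The Vmp1 entry of the FPKM annotation also carries the mark confounded.

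Of 11 genes that work with VMP1 in autophagosome formation, 8 were called lower and 2 higher in Veh than in WT (34.0% and 39.0% of all genes), but 3 lower and 7 higher with library totals alone, and 1 higher without the WT mouse A18 or the Veh mouse A9. The lipid-binding protein Wipi2 (-0.96 ± 0.08), the scramblase Atg9a (-0.90 ± 0.08) and the ubiquitin-like conjugation factor Atg5 (-0.79 ± 0.06) had the largest falls. Under TMM, 6 of the 11 were called higher and 1 lower with anti-miR-21 compared to Veh, and 5 and 1 with ACEi, where 28.8% and 21% of all genes were called higher. Wipi2 rose by 0.55 ± 0.07 and 0.46 ± 0.09, Atg9a by 0.50 ± 0.08 and 0.38 ± 0.10, and Atg5 by 0.46 ± 0.06 and 0.45 ± 0.07. Atg7, an enzyme of the same conjugation system, fell by 0.20 ± 0.05 and by 0.18 ± 0.06, and its call with ACEi was lost when any of 8 mice was left out (A1, A4, A9, A19, A20, A11, A13 or A23).

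The reported inducers of miR-21 transcription, among them TGF-beta, IL-6, STAT3 and the AP-1 factors, were all higher in Veh mice (10 of 10, median log2 fold change 2.51, against 39.0% of all genes called higher). Fosl1 (3.94 ± 0.475) and Fos (3.53 ± 0.42) had the largest fitted changes beside Il6. Il6 had 0 to 1 counts in WT mice and 17 to 59 counts in Veh mice, so no fold is given for it. With anti-miR-21, 8 of the 10 fell compared to Veh, among them Junb (-1.28 ± 0.21), Fos (-1.21 ± 0.34) and Il6, which had 0 to 16 counts there, against 30.5% of all genes. With ACEi 4 fell (2 without the ACEi mouse A23, and 19.1% of all genes), with Junb (-0.87 ± 0.26), Tgfb1 (-0.80 ± 0.17) and Smad3 (-0.46 ± 0.09) in front. No inducer was called between anti-miR-21 and ACEi.

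Pdcd4 restrains translation by binding the helicase EIF4A, and it holds the site printed above. WT mice had 33.9, 36.1, 36.95, 37.45 and 45.6 CPM, and Veh mice had a lowest, median and highest value of 39.8, 45.0 and 49.25 CPM. The WT mouse A14 lay within the range of Veh, while the other 4 WT mice were below it. Pdcd4 rose 1.18-fold (log2 0.24 ± 0.08, adjusted p = 0.00907). Within flow cell A alone the change was 0.18 ± 0.11 (adjusted p = 0.17) and was not called. Anti-miR-21 mice had 33.6, 35.3 and 43.3 CPM, and 5 of these 6 mice were below all Veh mice. Pdcd4 fell by 0.29 ± 0.07 on the log2 scale with anti-miR-21 (adjusted p = 0.00251) to a level that was not distinguishable from WT (-0.04 ± 0.08, adjusted p = 0.675). ACEi mice had 37.6, 40.3 and 41.55 CPM, with a log2 fold change of -0.17 ± 0.09 to Veh (adjusted p = 0.139). Pdcd4 was called lower with ACEi under upper quartile scaling (-0.25, adjusted p = 0.0447) and library totals alone (-0.44, adjusted p = 0.00473). It was also called on log2(FPKM + 1) and log2(FPKM + 0.1). The Pdcd4 entry of the FPKM annotation carries the mark confounded.

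Of 8 translation genes around PDCD4, including EIF4A and EIF4F subunits, 5 were called lower and 2 higher in Veh than in WT (34.0% and 39.0% of all genes), but none lower and 6 higher with library totals alone. Eif4ebp1, an inhibitor of cap binding, rose by 1.55 ± 0.13, and Eif4a1 rose by 0.37 ± 0.07. The cap-binding protein Eif4e (-0.61 ± 0.07), the scaffold Eif4g1 (-0.54 ± 0.06) and Btrc (-0.43 ± 0.07), the ubiquitin ligase subunit that recognises PDCD4, were lower under TMM. With anti-miR-21, Eif4ebp1 (-0.91 ± 0.12) and Eif4a1 (-0.24 ± 0.07) fell, while Eif4e (0.43 ± 0.07), Eif4g1 (0.31 ± 0.06) and Eif4a2 (0.26 ± 0.07) were among 5 called higher under TMM (28.8% of all genes) and none of the 8 was called higher with library totals. Without the anti-miR-21 mouse A12, 3 were called higher. With ACEi 4 were called higher under TMM (21% of all genes), 2 without the ACEi mouse A11, and 1 with library totals, and 1 lower, Eif4ebp1 (-0.76 ± 0.15). Eif4e (0.42 ± 0.08), Eif4g1 (0.31 ± 0.07) and Btrc (0.26 ± 0.08) led those called higher.

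Spry1 and Spry2 are inhibitors of receptor tyrosine kinase signalling through RAS and ERK, and both hold a seed match. Spry1 varied widely among WT mice, with 12.1, 16.8, 23.3, 33.4 and 38.5 CPM. Veh mice had 50.45, 58.1 and 66.0 CPM as the lowest, median and highest value. All Veh mice were above all WT mice, and Spry1 rose 2.33-fold (log2 1.22 ± 0.21, adjusted p = 2.07e-05). The anti-miR-21 mice had 30.4, 37.9 and 44.9 CPM as lowest, median and highest value, and the ACEi mice had 35.3, 40.9 and 47.3 CPM. Every treated mouse was below every Veh mouse, and both treated groups overlapped with WT. Spry1 fell by 0.60 ± 0.19 (adjusted p = 0.00987) with anti-miR-21, and with ACEi the log2 fold change was -0.49 ± 0.24 (adjusted p = 0.104). The latter was called with library totals alone (-0.77, adjusted p = 0.018) and when only these groups were fitted (-0.50, adjusted p = 0.00547). The call with anti-miR-21 was lost without the 4 mice with high adipocyte markers (-0.54, adjusted p = 0.0991).

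Spry2 was less variable. WT mice had 13.5, 14.3, 14.8, 15.3 and 15.6 CPM, and Veh mice had 17.8, 19.9 and 23 CPM as the lowest, median and highest value. All Veh mice were above all WT mice, and Spry2 rose 1.37-fold (log2 0.45 ± 0.08, adjusted p = 5.37e-05). Anti-miR-21 mice (16.35, 17.1 and 20.4 CPM as the lowest, median and highest value) and ACEi mice (16.6, 17.3 and 20.8 CPM) overlapped with Veh and were above WT. Spry2 remained higher than in WT in both treated groups, by 0.28 ± 0.08 (adjusted p = 0.00891) and by 0.31 ± 0.10 (adjusted p = 0.0135). The first call was lost within flow cell A alone (0.22, adjusted p = 0.0896) and the second without the ACEi mouse A13 (0.21, adjusted p = 0.118). The change from Veh to anti-miR-21, not called over all mice, was called with upper quartile scaling (-0.25, adjusted p = 0.0108), within flow cell A (-0.23, adjusted p = 0.0289) and without the anti-miR-21 mouse A2 or A10 (adjusted p = 0.0416 and 0.0332), and was smallest without the Veh mouse A19 (-0.10, adjusted p = 0.263).

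Among the relatives of the Sprouty genes, Spred3 rose in Veh (2.01 ± 0.16) and fell with anti-miR-21 (-1.19 ± 0.14) and ACEi (-0.83 ± 0.18). Spry4 gave -0.11 ± 0.09 for Veh vs WT (adjusted p = 0.306), with the opposite sign under library totals (0.48), and was called higher with anti-miR-21 (0.29 ± 0.09, adjusted p = 0.00629) but not with library totals (-0.05). With ACEi Spry4 was not called by edgeR (0.26 ± 0.105, adjusted p = 0.0542). Spry3 had too few reads to be tested. Of 10 genes that report ERK activity, 7 were called higher and 2 lower in Veh, against 39.0% and 34.0% of all genes. Egr1 (4.28 ± 0.41), Fosl1 (3.94 ± 0.475) and the ERK phosphatase Dusp5 (2.69 ± 0.16) rose most, while Dusp4 (-0.54 ± 0.22) and Ccnd1 (-0.41 ± 0.12) were lower under TMM and not with library totals. Of these 2 calls 1 was left without A6, A14, A1, A4 or A16. With anti-miR-21, 5 of the 10 fell (30.5% of all genes did), led by Etv4 (-1.45 ± 0.23), Dusp5 (-1.22 ± 0.14) and Egr1 (-1.18 ± 0.33). With ACEi, Etv4 (-1.30 ± 0.30), Dusp5 (-0.51 ± 0.17) and Phlda1 (-0.48 ± 0.15) fell, 3 of the 10 against 19.1% of all genes.

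Peli1, a ubiquitin ligase of innate immune receptor signalling, holds the site closest to its stop codon of the 5 genes, 32 bases behind it. WT mice had 11.2, 11.3, 12.1, 15.1 and 15.6 CPM, and Veh mice had 12.5, 16.5 and 18.85 CPM as the lowest, median and highest value. The groups overlapped, and Peli1 rose 1.24-fold (log2 0.31 ± 0.12, adjusted p = 0.0289). Peli1 was the least secure of the 9 calls. It was lost (adjusted p from 0.058 to 0.081) when any of the WT mice A3, A17 and A18 or of the Veh mice A19 and A20 was left out, and within flow cell A alone (0.14 ± 0.16). Under TMM it was not called in either treated group compared to Veh, with -0.10 ± 0.12 for anti-miR-21 and -0.08 ± 0.14 for ACEi (adjusted p = 0.667). With anti-miR-21 it was called lower on log2(FPKM + 1) (-0.37, adjusted p = 0.00707) as well as with library totals. Its relative Peli2 fell by 1.20 ± 0.08 in Veh and rose by 0.84 ± 0.08 with anti-miR-21.

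Reck, a membrane-anchored inhibitor of matrix metalloproteinases, had 5.79, 5.96, 7.68, 8.41 and 9.33 CPM in WT. Veh mice had a lowest, median and highest value of 11.7, 14.03 and 17.4 CPM. All Veh mice were above all WT mice, and Reck rose 1.91-fold (log2 0.94 ± 0.13, adjusted p = 1.82e-06). Anti-miR-21 mice had 8.39, 10.4 and 11.65 CPM, and the ACEi mice had 9.23, 10.0 and 11.2 CPM. Every treated mouse was below every Veh mouse. Reck fell by 0.50 ± 0.12 (adjusted p = 0.00132) with anti-miR-21 and by 0.48 ± 0.15 (adjusted p = 0.0148) with ACEi. The call with ACEi was lost without the ACEi mouse A11 (adjusted p = 0.0541) or A13 (adjusted p = 0.0894). The transcripts with the most similar levels over the 20 mice were Prrx1 (r = 0.966) and Pdgfra (r = 0.962), the latter a fibroblast marker of the lists used here.

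The proteases that RECK restrains rose with it. Veh mice had more of all 5 transcripts, with Mmp2 at 4.24 ± 0.22, Mmp14 at 4.01 ± 0.28 and Mmp9 at 3.65 ± 0.21 on the log2 scale. Of all genes, 39.0% were called higher in Veh than in WT. All 5 fell with anti-miR-21 and all 5 with ACEi, but with ACEi 3 did without the ACEi mouse A13. Over all genes 30.5% and 19.1% were called lower in these comparisons. Mmp9 fell by 2.60 ± 0.18 and by 1.66 ± 0.22, Mmp14 by 1.26 ± 0.22 and by 0.94 ± 0.28, and Mmp2 by 0.85 ± 0.17 and by 0.82 ± 0.22.

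Tpm1, an actin-binding tropomyosin, showed the largest rise of the 9 genes. WT mice had 79.8, 84.5, 91.4, 96.8 and 108.3 CPM, and Veh mice had 391, 441 and 530.4 CPM as the lowest, median and highest value. The groups were far apart, and Tpm1 rose 4.91-fold (log2 2.30 ± 0.12, adjusted p = 4.03e-12). Anti-miR-21 mice had 143.6, 176 and 229 CPM as lowest, median and highest value, and the ACEi mice had 235, 239 and 269 CPM. All 4 groups were apart from each other. Tpm1 fell by 1.31 ± 0.11 (adjusted p = 3.24e-08) with anti-miR-21 and by 0.87 ± 0.14 (adjusted p = 7.18e-05) with ACEi. Its relatives Tpm4 (2.16 ± 0.11) and Tpm2 (1.26 ± 0.14) also rose in Veh, and they fell with anti-miR-21 (-0.87 ± 0.10 and -1.01 ± 0.13) and with ACEi (-0.65 ± 0.13 and -0.76 ± 0.16). Tpm1 levels were most similar to those of Pdlim7, which encodes a protein of actin stress fibres (r = 0.993 over 20 mice).

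Btg2, an antiproliferative gene that is induced early after stress, had 14.4, 16.7, 20.15, 20.2 and 26.45 CPM in WT. Veh mice had 56.2, 65.3 and 127.2 CPM as the lowest, median and highest value, and the highest one, A19, stood apart from the next one at 71.3 CPM. All Veh mice were above all WT mice, and Btg2 rose 3.81-fold (log2 1.93 ± 0.20, adjusted p = 2.31e-08). Anti-miR-21 mice had 31.4, 38.9 and 50.1 CPM as the lowest, median and highest value, all below Veh. The ACEi mice had 56.6, 58.2 and 59.3 CPM, which lay within the range of Veh. Btg2 fell by 0.92 ± 0.18 with anti-miR-21 (adjusted p = 1.71e-04) and was not called with ACEi under TMM (-0.36 ± 0.22, adjusted p = 0.1965). With ACEi it was at -0.64 with library totals alone and at -0.56 on log2(FPKM + 1), where the medians of all genes were -0.32 and -0.21. Btg2 followed Jun over the 20 mice (r = 0.981). Its relative Btg1 rose by 1.33 ± 0.10 in Veh, and Tob1, another member of that family, fell by 1.15 ± 0.11.

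Mpv17l encodes a membrane protein of peroxisomes and mitochondria that has been tied to the handling of reactive oxygen species. Of the 8 reported targets followed here, it was the one with a lower level in Alport kidneys and a higher level with treatment. WT mice had 803.6, 811, 935.5, 959 and 1080.0 CPM. Veh mice had 26.3, 54.3 and 182.4 CPM as the lowest, median and highest value, and their spread was wide. The groups were apart, and Mpv17l fell by 3.63 ± 0.39 on the log2 scale (adjusted p = 5.09e-08). Anti-miR-21 mice had 294.4, 384 and 583.5 CPM as lowest, median and highest value, and the ACEi mice had 355.5, 399 and 439.6 CPM. Every treated mouse was above every Veh mouse and below every WT mouse. Mpv17l rose by 2.43 ± 0.37 with anti-miR-21 (adjusted p = 1.15e-05) and by 2.43 ± 0.41 with ACEi (adjusted p = 1.33e-04). On the log2 scale the means with anti-miR-21 and ACEi had covered 69.2% and 69.9% of the difference that separated Veh and WT. Its relative Pxmp2, a peroxisomal channel, changed in the same directions, by -2.28 ± 0.18 in Veh, 1.79 ± 0.18 with anti-miR-21 and 1.17 ± 0.21 with ACEi.

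Sums of cell type markers also differed between the groups. Proximal tubule markers, 6 genes, summed to 2182 ± 877 CPM in Veh (SD, n = 6), 8298 ± 1748 CPM with anti-miR-21 and 7409 ± 1190 CPM with ACEi, compared to 13080 CPM in WT. Mpv17l, at a mean of 918 CPM in WT, 74.1 CPM in Veh, 399 CPM with anti-miR-21 and 398 CPM with ACEi, was likewise highest in WT and lowest in Veh. The transcript most similar to Mpv17l was Cyp7b1 (r = 0.997 over 20 mice). Fibroblast markers, 5 genes led by Col3a1, summed to 201.2 ± 68.1 CPM in WT and 2886 ± 244 CPM in Veh, and to 817 ± 259 CPM and 1295 ± 65.5 CPM with anti-miR-21 and ACEi. All 5 were called higher in Veh, 4 were called lower with anti-miR-21 (Dcn was not, at 0.04) and 2 with ACEi, Col1a1 (-1.17) and Col3a1 (-1.31). Over all genes 39.0% were called higher in Veh, 30.5% lower with anti-miR-21 and 19.1% lower with ACEi. Smooth muscle and myofibroblast markers summed to 160.5 ± 26.8, 495 ± 87.8, 255.5 ± 31.4 and 292 ± 28.3 CPM in WT, Veh, anti-miR-21 and ACEi, with Acta2 in front in WT and Tagln in the other groups. Of these 5 genes 4 were called higher in Veh, 4 lower with anti-miR-21 and all 5 lower with ACEi. The shares of all genes were again 39.0%, 30.5% and 19.1%. Macrophage markers, led by Lyz2 in the knockout groups, summed to 166 ± 12.9 CPM in WT and 1575 ± 126 CPM in Veh. They summed to 778 ± 200 CPM with anti-miR-21 and 815.5 ± 123 CPM with ACEi. Tubule injury markers summed to 21.2 ± 6.30 CPM in WT and 709 ± 194 CPM in Veh, and stood at 249 ± 71.0 and 322 ± 19.6 CPM in the treated groups. Of the 3 injury markers, Lcn2 was called lower with ACEi (-2.27), while Havcr1 (-0.13) and Krt20 (-0.35) were not. All 4 of these lists other than proximal tubule had the order of means WT, anti-miR-21, ACEi, Veh from low to high, and so had Spry1, Spry2, Reck, Tpm1, Btg2 and Peli1. For Spry1, Spry2, Reck and Peli1 the difference between anti-miR-21 and ACEi changed its sign when 1 mouse was left out. The part of these cell types in the changes of the 9 genes was not tested.

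**Figure D3:**
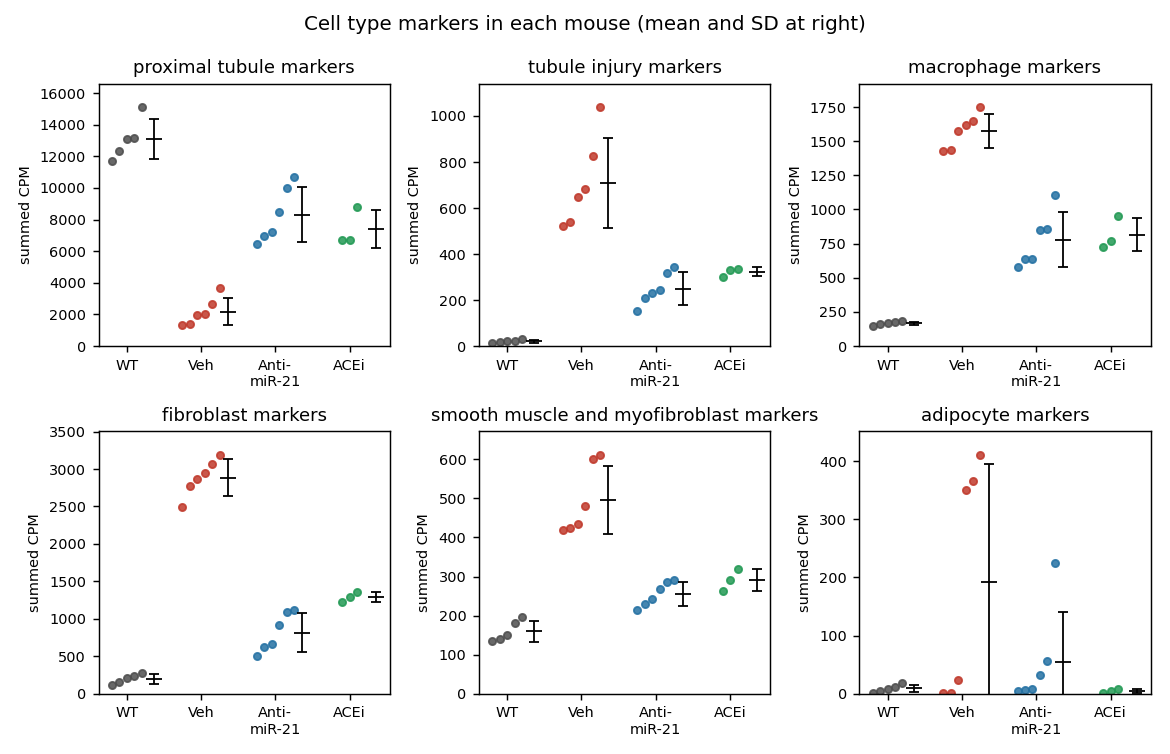
Summed CPM of 6 lists of cell type markers in each mouse, on linear axes that start at 0, with the mean and SD at the right of each group (WT n = 5, Veh n = 6, anti-miR-21 n = 6, ACEi n = 3). Proximal tubule markers are lowest in Veh mice, the injury, macrophage, fibroblast and myofibroblast lists are highest there, and adipocyte markers exceed 200 CPM in 4 mice only.

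The sums of the remaining lists in WT, Veh, anti-miR-21 and ACEi were 5888, 3108, 5060 and 4252 CPM for the thick ascending limb and 621, 173, 424 and 335 CPM for the distal tubule. These sums were carried by Umod and Slc12a3, and 1 of the 3 markers in each list, Cldn16 (0.59) and Trpm6 (0.44), was called higher in Veh than in WT. They were 429, 289, 245 and 333 CPM for the collecting duct and 203.7, 244, 341 and 306.5 CPM for podocytes. Although the collecting duct sum was lower with anti-miR-21 than in Veh, 1 of its 3 markers was called higher there and 0 lower (28.8% and 30.5% of all genes). Endothelial markers summed to 168.8, 201.9, 214.4 and 209.9 CPM. These 4 markers did not move together, as 2 were called higher and 1 lower in Veh than in WT (39.0% and 34.0% of all genes). T cell markers were at 2.49, 21.2, 11.25 and 17.4 CPM, and B and plasma cell markers at 12.7, 47.2, 16.4 and 34.5 CPM. Markers of skeletal muscle (0.6935, 3.195, 1.18 and 1.59 CPM) and of the adrenal gland (2.30, 2.69, 2.58 and 2.17 CPM) were close to 0.

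Compared per exon length, in the deposited FPKM values, Mpv17l was the most abundant of the 9 genes in WT (229 ± 30.5 FPKM). It was followed by Vmp1 (44.7 ± 3.59) and Tpm1 (43.2 ± 6.36), which did not differ beyond their spread, and then by Pdcd4 (13.5 ± 1.58), whose lowest mice lay within the range of Spry1. Spry1 (8.32 ± 3.77), Spry2 (7.03 ± 0.418) and Btg2 (5.27 ± 1.39) overlapped, and Peli1 (3.10 ± 0.547) and Reck (1.39 ± 0.314) were lowest. In Veh mice the order began with Tpm1 (322 ± 48.8 FPKM) and Vmp1 (92.0 ± 11.1). Btg2 (30.4 ± 11.6), Spry1 (29.2 ± 3.76), Mpv17l (27.3 ± 20.7) and Pdcd4 (24.2 ± 2.08) overlapped there. Reck was again the lowest (4.001 ± 0.550). FPKM values carry no TMM scaling, so these levels order genes within a group. The annotation deposited with them credits most entries to UCSC genes, while the counts are listed by Ensembl gene, so the gene models of the FPKM and count values may differ.

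The 5 genes with a seed match and the 3 reported targets without one were compared by description only. In Veh vs WT the 5 genes were all called higher (39.0% of all genes were), with a median log2 fold change of 0.45 (0.24 to 1.22). With anti-miR-21, 3 of the 5 were called lower (30.5% of all genes) and none higher, with a median of -0.29 (-0.60 to -0.10). With ACEi, 1 of the 5 was called lower, a share near the 19.1% of all genes, with a median of -0.17 (-0.49 to -0.08). Tpm1, Btg2 and Mpv17l, which hold no match, had the 3 largest log2 fold changes of the 9 genes in Veh vs WT and with anti-miR-21, whereas with ACEi the value of Btg2 was smaller than that of Spry1, Reck and Vmp1.

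Other genes that have been reported as miR-21 targets were gathered in a list of 27, of which 26 were tested (Il12a was not). Of these, 20 were called higher and 5 lower in Veh, at a median log2 fold change of 0.61, and 3 were lower with library totals alone. With anti-miR-21, 16 were called lower and 3 higher than in Veh, with a median of -0.30, and 20 lower and 3 higher with library totals alone. Over all genes the shares were 39.0% higher and 34.0% lower in Veh, and 28.8% higher and 30.5% lower with anti-miR-21. With ACEi, 9 were called lower and 3 higher, with a median of -0.19, and 19 lower with library totals alone. Of all genes, 21% were called higher and 19.1% lower with ACEi. Without the ACEi mouse A13, 5 of the list were called lower with ACEi, and without the Veh mouse A16, 5 were called higher with anti-miR-21. The genes called higher with anti-miR-21 over all mice were Acat1, Ppara and Timp3, and these 3 also had the largest falls in Veh. The others that moved were mostly higher in Veh and lower with treatment, among them the matrix protein gene Tgfbi (3.09 ± 0.19 in Veh), Marcks (2.47 ± 0.21 in Veh, -0.92 ± 0.19 with anti-miR-21), Rhob (-0.75 ± 0.12 with anti-miR-21) and Lrrfip1 (-0.56 ± 0.11 with ACEi). Tgfbi fell by 0.81 ± 0.20 with ACEi.

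Acat1, Ppara and Timp3 each hold 1 match of the 8-base form. The 22 bases ending with it are given because these genes had the direction that Mpv17l had.
Acat1: aggttatattcagcATAAGCTA
Ppara: tcgagaatagtttgATAAGCTA
Timp3: tttttgagctttcaATAAGCTA

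They lie at chr9:53582461-53582482 (minus strand, Acat1), chr15:85801815-85801836 (plus, Ppara) and chr10:86348213-86348234 (plus, Timp3). Of the 26 tested genes of this list 19 hold a match. Of these 19, 14 were called higher and 4 lower in Veh. With anti-miR-21, 3 of the 19 were higher and 10 lower, and with ACEi 3 and 5. Of the 7 without a match, 6 were called higher and 1 lower in Veh. With anti-miR-21 6 of these 7 were called lower and with ACEi 4, and none was called higher. Of all genes, 39.0% were called higher and 34.0% lower in Veh, 28.8% and 30.5% with anti-miR-21, and 21% and 19.1% with ACEi.

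Ppara, the nuclear receptor that drives fatty acid oxidation, had 4.19, 4.66, 4.77, 4.94 and 5.70 CPM in WT. Veh mice had 1.22, 2.04 and 3.73 CPM as the lowest, median and highest value. Anti-miR-21 mice had 2.88, 4.67 and 6.07 CPM, and the ACEi mice had 4.001, 4.04 and 4.63 CPM. Veh lay below WT and ACEi without overlap, and 1 anti-miR-21 mouse, A8, lay within the Veh range. These levels rest on 44 to 162 counts per mouse. In the deposited FPKM values A8 (5.996) lay above the highest Veh mouse, A16 (4.854). Ppara fell by 1.12 ± 0.21 in Veh (adjusted p = 7.18e-05), and rose by 1.03 ± 0.20 with anti-miR-21 (adjusted p = 1.97e-04) and by 0.92 ± 0.24 with ACEi (adjusted p = 0.00461).

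Acat1, a mitochondrial thiolase of ketone body and isoleucine metabolism, had 1033 to 1253 CPM in WT and 107 to 263 CPM in Veh. With anti-miR-21 it ranged from 554 to 922 CPM and with ACEi from 479 to 583 CPM. All treated mice lay between the Veh and WT ranges. Acat1 fell by 2.86 ± 0.21 in Veh and rose by 2.17 ± 0.20 and 1.72 ± 0.22 with anti-miR-21 and ACEi. Timp3, an inhibitor of metalloproteinases in the matrix, had 1982 to 2205 CPM in WT, 673 to 1042 CPM in Veh, 1353 to 1758 CPM with anti-miR-21 and 1550.0 to 1733 CPM with ACEi. It fell by 1.38 ± 0.10 in Veh and rose by 0.96 ± 0.10 and 0.9994 ± 0.12. Smad7, an inhibitor of TGF-beta signalling, rose by 0.28 ± 0.08 in Veh and fell by 0.19 ± 0.07 with anti-miR-21 (adjusted p = 0.0284). With ACEi Smad7 was not called by edgeR (-0.13 ± 0.09, adjusted p = 0.255).

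Some members of this list rested on few reads. Serpinb5 was called higher in Veh and lower with both treatments at 4 to 69 counts per Veh mouse, 0 to 11 per WT mouse, 0 to 6 with anti-miR-21 and 0 to 2 with ACEi. Fasl was called higher in Veh at 9 to 45 counts, compared to 0 to 5 in WT. No fold is given for them.

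**Figure D4:**
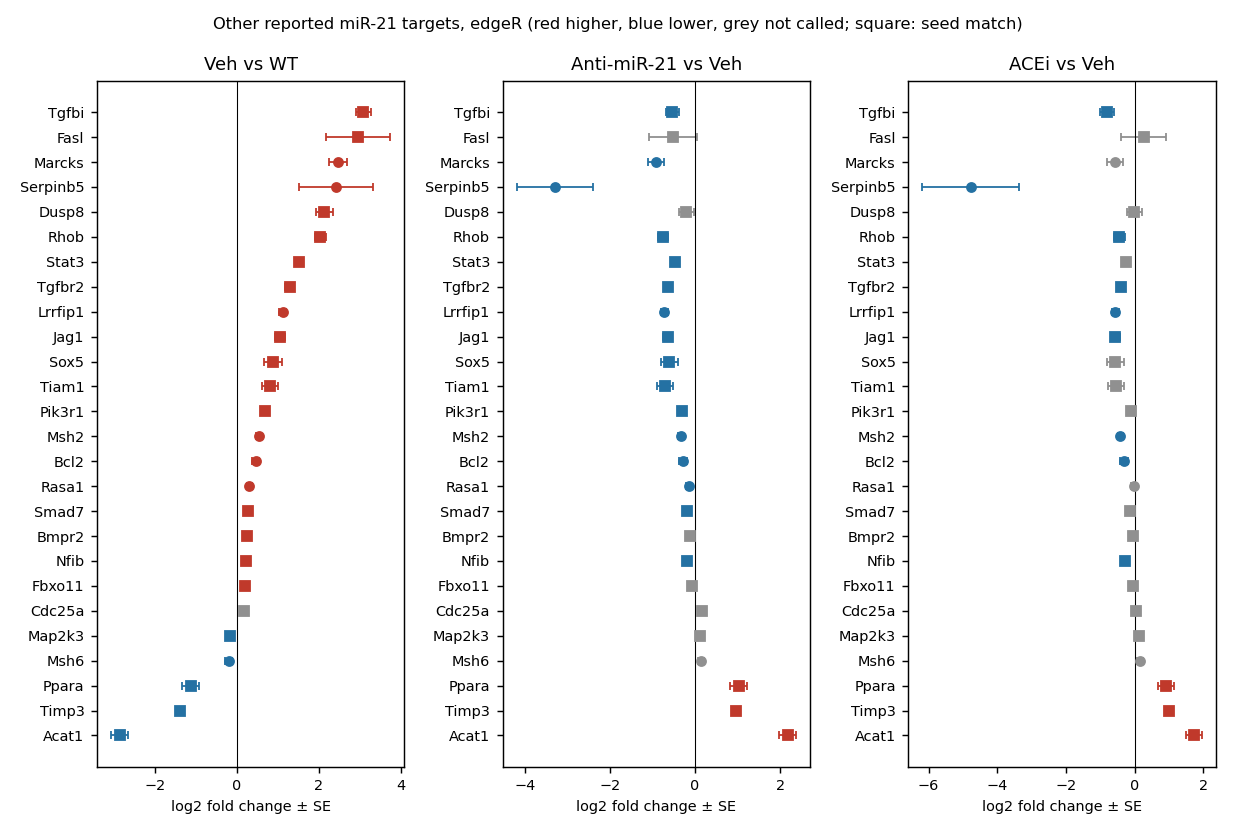
Log2 fold change with its standard error from edgeR for 26 other reported miR-21 targets in 3 comparisons, in the order of their change in Veh vs WT. Red and blue mark genes called higher and lower, grey marks genes not called, and squares mark genes with a seed match. Acat1, Timp3 and Ppara at the bottom are the 3 genes called higher with anti-miR-21.

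Over all 15216 tested protein-coding genes with a 3′ UTR, 1218 held at least 1 match, 362 held an 8-base site and 121 held 2 or more matches. With anti-miR-21 compared to Veh, 34.6% of the genes with a match were called higher and 27.4% lower, compared to 29.4% and 33.5% of the 13998 genes without one. Among genes with an 8-base site 34.8% were called higher and 25.7% lower, and among genes with 2 or more matches 38.02% and 25.6%. All shares of these sets are from the fit with TMM. With library totals alone 2459 of all genes were called higher and 9861 lower in this comparison, and the sets were not counted there. The median log2 fold changes were 0.00, -0.06 and 0.07 for genes with a match, without one and with 2 or more. With ACEi the shares were 28.0% higher and 16.1% lower with a match, 22.4% and 21.04% without, and 37.2% and 9.09% with 2 or more matches. In Veh vs WT 37.5% of the genes with a match were higher and 39.2% lower, compared to 41.3% and 35.0% without. Between anti-miR-21 and ACEi the median log2 fold change was -0.0041 for genes with and for genes without a match, and 0.575% of the genes with a match were called higher and 0.493% lower (7 and 6 genes), compared to 0.15% and 0.229% without one (21 and 32 genes). For genes with 2 or more matches the median between anti-miR-21 and ACEi was -0.036, with 2 genes called higher and 0 lower. The 3′ UTRs of these sets differed in length, with a median of 1025 bases without a match, 2729 bases with one and 4464 bases with 2 or more. The part of this difference in length was not tested.

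**Figure D5:**
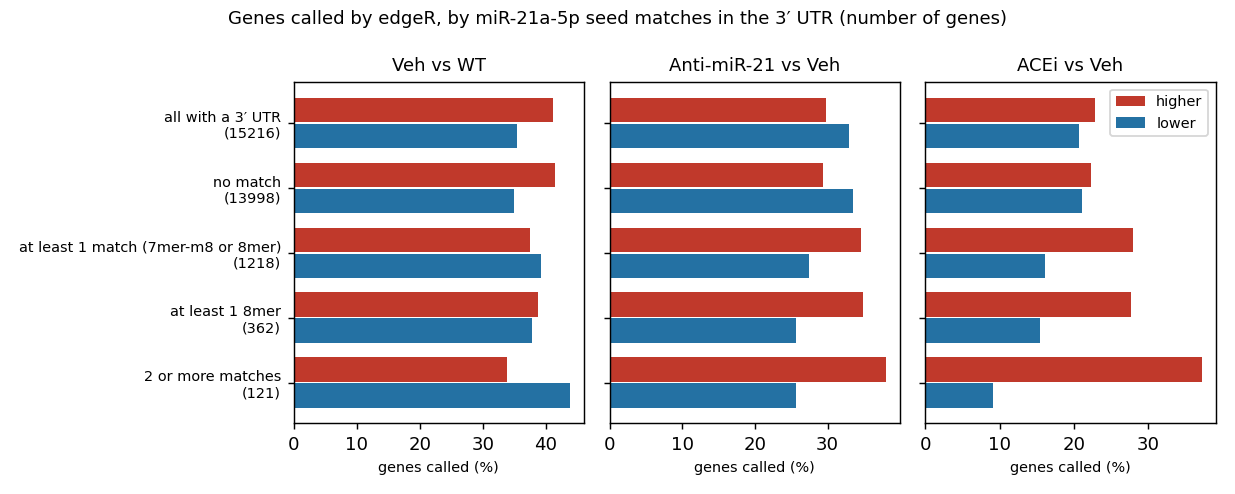
Percentage of genes called higher (red) and lower (blue) by edgeR with TMM in 3 comparisons. The sets are all tested protein-coding genes with a 3′ UTR and those without and with miR-21a-5p seed matches, with the number of genes in parentheses. In both comparisons of a treatment with Veh the share called higher is larger, and the share called lower smaller, for genes with 2 or more matches than for genes without one, with 38.02% and 37.2% called higher in the last set.

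Of 15 genes that make and use microRNAs, 4 were called higher and 5 lower in Veh than in WT, shares no larger than the 39.0% and 34.0% of all genes, but 14 higher and none lower with library totals alone, and 2 higher without the WT mouse A18. The Argonaute genes Ago4 (1.08 ± 0.15) and Ago1 (0.43 ± 0.06) and the Drosha partner Dgcr8 (0.31 ± 0.11) were higher. The nuclear export factor Xpo5 (-0.47 ± 0.11), the nuclease Drosha (-0.32 ± 0.06) and the silencing factor Tnrc6b (-0.31 ± 0.07) were lower under TMM and had the opposite sign with library totals. Dicer1, which cuts the hairpin, was not called in any of these comparisons under TMM (0.05 ± 0.05 for Veh vs WT, -0.02 ± 0.05 with anti-miR-21 and 0.01 ± 0.06 with ACEi). With anti-miR-21, Ago4 (-0.46 ± 0.14) and Ago1 (-0.20 ± 0.06) fell, and Xpo5 (0.31 ± 0.11), Ago2 (0.24 ± 0.06) and Drosha (0.23 ± 0.06) were among 4 genes called higher under TMM, near the 28.8% of all genes, and none with library totals. With ACEi, Xpo5 (0.36 ± 0.13) and Ago2 (0.22 ± 0.07) were called higher under TMM (21% of all genes were) and not with library totals, and neither was called without the ACEi mouse A11 or A13.

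The 18 tested relatives of the 9 genes split about evenly. Under TMM 8 were called higher and 7 lower in Veh than in WT, 7 higher and 7 lower with anti-miR-21 compared to Veh, and 6 higher and 5 lower with ACEi. Of all genes, 39.0% and 34.0%, 28.8% and 30.5%, and 21% and 19.1% were called higher and lower in these comparisons, a split that is also close to even. With library totals the numbers of those lower in Veh and higher with anti-miR-21 both fell to 4. Those that rose with treatment were led by Pxmp2, Peli2 (0.84 ± 0.08 with anti-miR-21), Tmem41a (0.77 ± 0.10 with anti-miR-21 and 0.70 ± 0.12 with ACEi), a relative of VMP1, and Tob1 (0.58 ± 0.12 with ACEi).

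The direct comparison of anti-miR-21 with ACEi called none of the 9 genes by edgeR, with 2 of them, Tpm1 and Btg2, at an unadjusted p under 0.05, and 0.584% of all genes tested were called. For Tpm1 and Btg2 the values of the 2 groups did not overlap, compared to 8.99% of all genes. Tpm1 was lower with anti-miR-21 than with ACEi by 0.44 ± 0.13 on the log2 scale (adjusted p = 0.1225), and Btg2 by 0.56 ± 0.21 (adjusted p = 0.236). DESeq2 called 1 of the 9, Tpm1 (-0.44 ± 0.14, adjusted p = 0.0482), and so did edgeR without the anti-miR-21 mouse A8 (adjusted p = 0.0462). For Mpv17l the difference was 0.00 ± 0.42. A difference in either direction well above this error could have gone uncalled, as that of Tpm1 (-0.44 ± 0.13) did. With 3 ACEi mice the precision of this comparison was low. Compared to WT, 7 of the 9 genes were called with anti-miR-21 and 7 with ACEi, against a background of 43.7% and 47.7% of all genes. Pdcd4 and Peli1 were the 2 genes not called in each.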

How the data were processed

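Kidney RNA of 20 mice had been sequenced as paired reads of 100 bases. According to the study's methods the authors mapped them to GRCm38 with OSA4 in OmicSoft Studio. A deposited table holds estimated counts per Ensembl gene (29.067% of the positive values were not whole, and all were rounded), and another holds FPKM values, which the authors computed per exon length and sequencing depth. In the FPKM file 3 columns belong to no sample used here and were left out. A deposited list of samples gives flow cells and 70004591 to 73294858 alignments per library.

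The 9 genes and all lists were chosen with earlier results of these data known. Counts were tested with edgeR 4.0.16 (quasi-likelihood, TMM, genes kept by filterByExpr at a minimum count of 10 and a minimum total of 15) in R 4.3.3, with 1 coefficient per group over all 20 mice. P-values were adjusted over 17622 genes by Benjamini-Hochberg at 0.05, and they measure the spread between these mice. Standard errors are the log2 fold change divided by the root of F. Named beyond the 9 genes and Col4a3 are, per list and comparison, up to 3 called genes in each direction with the largest change. Also named are 5 listed genes whether called or not (Ppara, Smad7, Timp3, Spry4, Dicer1). The genes most similar to each of the 9 by Pearson's r of log2 CPM are named as well. A further gene of the list of other reported targets is not reported here and was left out of the counts of that list after the values were seen. Some genes are in more than 1 list (Fosl1, Stat3, Tmem41b). The script was tested on simulated counts in which few genes were changed, as many up as down. A shift as wide as that of Veh vs WT, with 73.0% of genes called, was not covered by that test. Alternatives were other scalings and filters, DESeq2 1.42.0, limma 3.58.1 on log2(FPKM + 1) and log2(FPKM + 0.1), flow cell, leaving out each mouse, and, chosen after seeing the data, leaving out 4 mice with adipocyte markers above 200 CPM. Spry1, Reck, Mpv17l, Peli1 and Vmp1 overlap other annotated genes, and the use of strand in counting is not given in the sources used here.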

Additional observations from a re-analysis of the deposited data

Results flagged for a closer look

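Btg2 stood at 127.2 CPM in the Veh mouse A19, far from the other Veh mice, of which the next was at 71.3 CPM. The gap took 0.788 of the range of the group. Of 27 groups of gene values checked in this way, chance would set about 1 in 20 apart. Over the fits that leave out 1 mouse each, the log2 fold change of Btg2 ranged from 1.71 to 2.06 for Veh vs WT, from -0.99 to -0.68 for anti-miR-21 vs Veh and from -0.40 to -0.11 for ACEi vs Veh.

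Mmp9, a gelatinase that RECK restrains, differed between the treatments. Its mean was 1.77 CPM with anti-miR-21 and 3.41 CPM with ACEi, compared to 10.8 CPM in Veh and 0.855 CPM in WT. The log2 fold change between anti-miR-21 and ACEi was -0.94 ± 0.21 (edgeR, adjusted p = 0.0406). The adjusted p ranged from 0.00293 to 0.190 over 20 alternatives, of which 6 passed the threshold, and the log2 fold change ranged from -1.02 to -0.44.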

How the results depend on the processing

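No paired analysis was possible because the labels give each mouse a name of its own and no number that ties mice of different groups, and replicate numbers follow the order of samples. For the 9 genes the direction held in all settings for Veh vs WT and for anti-miR-21 vs Veh, and, except for Peli1 on leaving out 1 mouse, for ACEi vs Veh. The cause of the changes listed here was not tested.

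For ACEi vs Veh, 26.7% of genes tested (4614) were called without the 4 mice with high adipocyte markers, compared to 40.1% (7074) with them. Of the 9 genes, 8 were called there with library totals alone, 8 on log2(FPKM + 1) and 7 on log2(FPKM + 0.1), compared to 4. For anti-miR-21 vs ACEi the share called, 0.584% (103 genes), was 1.12% with at least 10 counts in every sample, 0.243% with no filter, 0.365% without the 4 mice, 2.48% by DESeq2 (437 genes) and 0.379% on log2(FPKM + 0.1). It ranged from 0.117% without the ACEi mouse A23 to 1.22% without the anti-miR-21 mouse A8. Of the 9 genes 1 was called there by DESeq2, and 0 to 1 when 1 mouse was left out. Within flow cell A 4 of the 9 genes were called for anti-miR-21 vs WT, and 4 to 7 were called for ACEi vs WT when 1 mouse was left out, the fewest without A13 or A23.

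Signs turned mostly for differences near 0. For anti-miR-21 vs ACEi, Mpv17l was at -0.0021 with upper quartile scaling, -0.083 with library totals, -0.011 with at least 10 counts in every sample, -0.0062 with no filter, -0.0048 with only these groups fitted, -0.097 and -0.098 on the FPKM scales and -0.017 without the 4 mice. Vmp1 was at -0.0019 and -0.002 on the FPKM scales, and Reck was at 0.022 and Peli1 at 0.0198 without the 4 mice. For anti-miR-21 vs WT, Pdcd4 was at 0.21 with library totals and at 0.19 and 0.21 on the FPKM scales. When 1 mouse was left out, anti-miR-21 vs ACEi ranged from -0.21 to 0.0018 for Spry1, -0.087 to 0.082 for Spry2, -0.082 to 0.062 for Reck, -0.13 to 0.083 for Mpv17l, -0.10 to 0.051 for Peli1, -0.043 to 0.10 for Spry4, -0.07 to 0.021 for Timp3 and -0.076 to 0.037 for Dicer1. Peli1 ranged from -0.13 to 0.012 for ACEi vs Veh and Pdcd4 from -0.096 to 0.029 for anti-miR-21 vs WT. Dicer1 ranged from -0.045 to 0.016 for anti-miR-21 vs Veh and from -0.048 to 0.066 for ACEi vs Veh.

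Among the listed genes the following signs turned with library totals, log2(FPKM + 1) and log2(FPKM + 0.1), in this order. For Veh vs WT they were Xpo5 (0.11, 0.23, 0.26), Drosha (0.26, 0.26, 0.28), Tnrc6b (0.28, 0.22, 0.29), Spry4 (0.48, 0.35, 0.47, and 0.0041 with upper quartile scaling), Dusp4 (0.046, 0.043, 0.042), Ccnd1 (0.17, 0.17, 0.17), Eif4g1 (0.041, 0.051, 0.052) and Btrc (0.16, 0.14, 0.17). For anti-miR-21 vs Veh they were Xpo5 (-0.023, -0.065, -0.0703), Ago2 (-0.098, -0.028, -0.063), Drosha (-0.11, -0.12, -0.13), Spry4 (-0.046, -0.041, -0.055), Eif4g1 (-0.033, -0.039, -0.0397) and Eif4a2 (-0.085, -0.022, -0.022). For ACEi vs Veh they were Spry4 (-0.013, -0.014, -0.018), Btrc (-0.0061, -0.0076, -0.0095) and Dicer1 (-0.26, -0.28, -0.32). For anti-miR-21 vs ACEi it was Spry4 (-0.032, -0.027, -0.037, and -0.024 without the 4 mice). Besides these, Xpo5 was at -0.013 and -0.013 on the FPKM scales and Ago2 at -0.053 with library totals for ACEi vs Veh. Dicer1 was there at -0.0019 with DESeq2 size factors in edgeR, -0.069 with upper quartile scaling, -0.0012 with at least 10 counts in every sample, -0.0004 with only these groups and -0.0015 with DESeq2, and for anti-miR-21 vs Veh at 0.021 without the 4 mice. For anti-miR-21 vs ACEi Timp3 was at 0.022 with flow cell as a term and Ppara at -0.0102 and -0.013 on the FPKM scales.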

Other observations

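Each of the 9 genes had transcripts with closely similar levels over the 20 mice. Besides those named above they were Cyp39a1 for Pdcd4 (r = 0.898), Kcnt2 for Spry1 (r = 0.959), Setd5 and Cnot3 for Spry2 (r = 0.899 each), Matn2 for Peli1 (r = 0.878) and Gm10275 for Vmp1 (r = 0.958). All groups share these values, so differences between groups weigh in them. With the group means taken out, the closest transcripts were Mfap5 for Pdcd4 (r = 0.829), Kcnt2 for Spry1 (r = 0.924), Med15 for Spry2 (r = 0.732), Arid3a for Peli1 (r = 0.899), Frem1 for Reck (r = 0.927), Anxa5 for Tpm1 (r = 0.899), Jun for Btg2 (r = 0.863), Cyp7b1 for Mpv17l (r = 0.979) and Clic1 for Vmp1 (r = 0.884). The best of all tested genes with a symbol is named in each case, which favours high values.

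Among the genes called against Veh, anti-miR-21 covered 39.5% (Vmp1) to 118% (Pdcd4) of the difference that separated Veh and WT on the log2 scale, and ACEi 37.6% (Tpm1) to 69.9% (Mpv17l). Both treatments share the Veh and WT mice in these values.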
